A study of Mus musculus with 3 samples.

Results

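The RNA profile described here is that of wild-type (WT) CD4+ T cells that recognise one peptide, taken from draining lymph nodes on day 7 of a primary response. It is 1 of the 3 libraries of the series, and the members are the 23283 gene entries with a WT value in the authors' table, ranked by that value. The donors were wild-type C57BL/6 mice immunized in the footpads with the peptide 2W1S in LPS and IFA (an oil adjuvant), and the inguinal and popliteal nodes were taken. Cells that bound 2W:I-A(b), the peptide held by the mouse MHC class II molecule I-A(b), were sorted by flow cytometry. Each genotype is 1 library, pooled over 4 experiments and 15 to 30 mice, so no value below has a replicate error and no test was possible. The other libraries, from mice labelled Myd88 -/- (MyD88 T-KO) and Il-6 receptor a chain -/- (IL6ra T-KO) and immunized alike, enter only the check of labels.

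A naive CD4+ T cell that meets its peptide with adjuvant divides and can take up different programs. T follicular helper (Tfh) cells use BCL6, the receptor CXCR5 and the cytokine IL-21 to enter B cell follicles and help B cells. Th1 and Th2 cells use T-bet and GATA3 with their own cytokines, Th17 cells make IL-17, and regulatory T (Treg) cells use FOXP3. RNA of a sorted population averages over all cells in it, so a higher level from more cells of a kind and one from more RNA per cell cannot be told apart.

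Levels are in FPKM, in which the fragments of a gene are divided by its transcript length and by the size of the library, so that genes can be compared per length. A level under 1 FPKM is called near 0. The library held about 23.2 M fragments (quartiles of the estimate 21.3 to 24.8 M), so 1 fragment on a transcript of 2000 bases is worth 0.0216 FPKM and a listed 0 allows up to 3 fragments, or 0.0648 FPKM. Intervals given below are 95% Poisson intervals on estimated fragments and cover counting error only. As a check of the labels, MyD88 T-KO cells had 19.5 FPKM of Myd88, against 49.8 FPKM in WT cells of the same table. Myd88 was also lower in cells labelled IL6ra T-KO, at 34.2 FPKM, against 51.03 FPKM in WT cells of that table. Cells labelled IL6ra T-KO had 65.1 FPKM of Il6ra, against 57.2 FPKM in WT cells of their table, so its level does not mark that label.

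Of the 23283 entries, 10201 (43.8%) reached 1 FPKM in the WT library. A further 4119 lay between 0 and 1 FPKM, and 8963 (38.5%) were listed at 0. At the upper end, 562 entries (2.41%) reached 100 FPKM and 23 reached 1000 FPKM. The median over all entries was 0.2004 FPKM, and over the entries at or above 1 FPKM it was 12.9 FPKM. The profile was concentrated, with 704 entries holding 50% of the summed FPKM and the 100 highest holding 23.4%. Counts of list members at or above 1 FPKM given below are to be read beside the 43.8% of all entries.

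**Figure D1:**
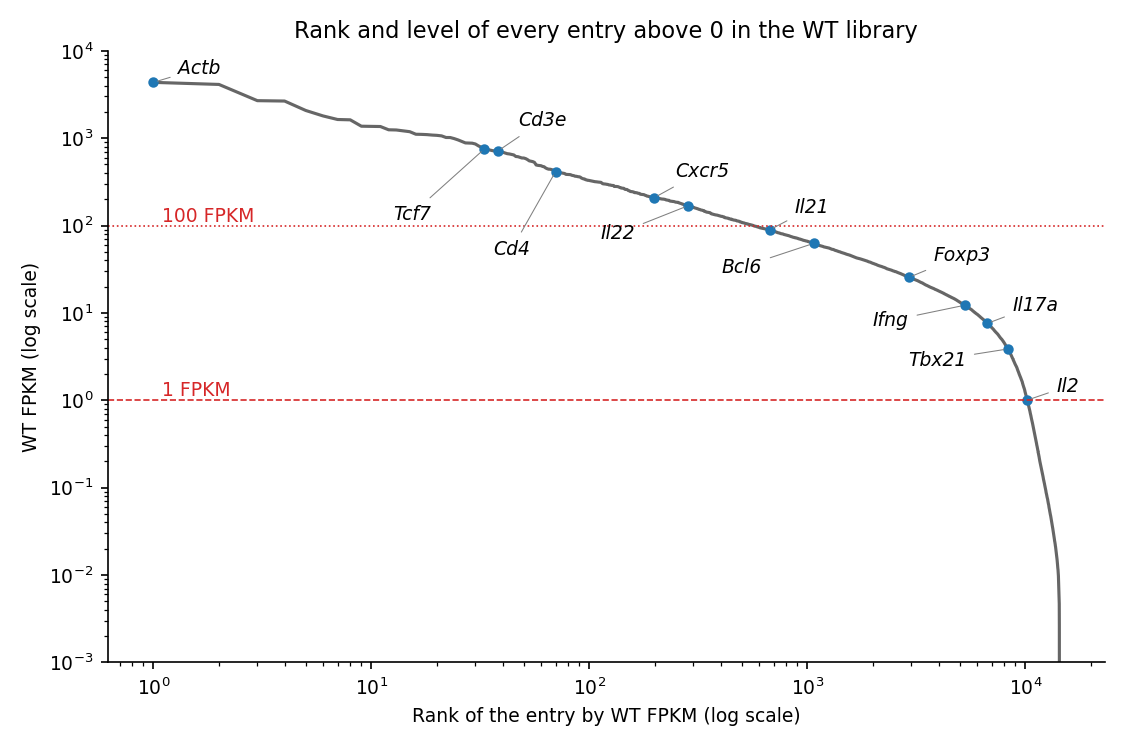
Each entry above 0 in the WT library by its rank (x axis, log scale) and its FPKM (y axis, log scale), with 13 genes marked and red lines at 1 and 100 FPKM. The curve runs from Actb at 4348 FPKM through Cd4 at 415 FPKM and Bcl6 at 62.4 FPKM to Il2 at 1.00 FPKM, near rank 10201, and then drops steeply.

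The most abundant transcripts were those of the actin cytoskeleton, MHC class I and protein synthesis. Actb, which encodes cytoplasmic beta-actin, was highest at 4348 FPKM. Tmsb4x, for the actin monomer-binding peptide thymosin beta 4, stood at 4116 FPKM, and Pfn1, for the actin-binding protein profilin 1, at 2684 FPKM. Cfl1 (cofilin 1, which severs actin filaments) had 1076 FPKM and Coro1a (coronin 1A, an actin regulator of leukocytes) 875 FPKM, so 5 of the 30 highest named genes serve actin. B2m, the light chain of MHC class I, followed at 2073 FPKM, and the heavy chain H2-K1 had 917 FPKM, with all 13 genes of the MHC class I list at or above 1 FPKM. Other leukocyte genes among the 30 were Srgn (serglycin, the proteoglycan of secretory granules) at 1212 FPKM, Cd52 (a small surface glycoprotein of lymphocytes) at 1185 FPKM and Laptm5 (a lysosomal membrane protein of blood cells) at 857 FPKM. Junb, a subunit of the transcription factor AP-1, was the only transcription factor gene among them, at 1061 FPKM. The 30 genes together held 12.7% of the summed FPKM.

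Ribosomal and translation genes made up most of the rest of that top group. Of the 30, 13 encode cytosolic ribosomal proteins, led by Rplp2 at 1634 FPKM and Rps9 at 1620 FPKM, and 4 more stand on the translation list. These 4 were Tpt1 (translationally controlled tumour protein) at 1796 FPKM, Eef1a1 (the elongation factor that brings aminoacyl-tRNA to the ribosome) at 1369 FPKM, Eef2 (the translocation factor) at 1084 FPKM and Gnb2l1 (the ribosomal scaffold RACK1) at 1016 FPKM. Many vertebrate mRNAs of this class begin with a C followed by pyrimidines, the terminal oligopyrimidine tract through which mTOR controls their translation. The letters around the RefSeq start are shown for 5 such genes with a run and for 2 abundant genes of other classes without one. Not every gene of the class has it: among the 30 highest, Rpl4, Rps15, Rps16, Tpt1 and Eef2 had no run. Each window (GRCm38.p6, RefSeq) has 10 bases before the start and 20 from it, on the gene's strand, and capitals mark the run. The start is the one listed in the RefSeq table used, which is the outer end of the gene for all of these but Rps9, where it lies 87 bases inside.
Rplp2 (chr7:141447641-141447670, plus strand): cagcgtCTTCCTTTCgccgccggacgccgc
Rps9 (chr7:3704031-3704060, plus strand): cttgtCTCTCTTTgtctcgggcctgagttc
Eef1a1 (chr9:78481705-78481734, minus strand): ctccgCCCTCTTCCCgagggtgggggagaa
Rpl13a (chr7:45128726-45128755, minus strand): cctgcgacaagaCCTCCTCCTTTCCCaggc
Gnb2l1 (chr11:48800350-48800379, plus strand): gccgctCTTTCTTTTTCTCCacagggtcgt
B2m (chr2:122147677-122147706, plus strand): ctggctctcatttcagtggctgctactcgg
Junb (chr8:84978729-84978758, minus strand): acaaattcagtataaaagcttggggctggg
A run was counted where a C and at least 6 further C or T bases, 7 in all, began within 5 bases of the start on the gene's strand. It was found at 22 of 63 ribosomal protein genes with a window (34.9%) and at 4 of 15 translation factor genes (26.7%), against 1062 of 17491 genes in all (6.07%). Among entries at or above 100 FPKM on neither list it stood at 30 of 395 (7.59%), and among respiratory chain genes at 7 of 67 (10.4%). For many genes the listed start lies well inside the gene. With only the 10993 genes whose start is within 5 bases of the outer end, a limit chosen after seeing the data, the run stood at 18 of 53 ribosomal protein genes (34%), 4 of 15 translation factor genes (26.7%) and 651 genes in all (5.92%). A match describes these letters only, and the RefSeq start may lie some bases from the start used in T cells.

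Levels within the ribosomal protein family ranged widely. Of 85 genes, 81 reached 1 FPKM and 35 reached 100 FPKM, with a median of 77.3 FPKM. Rpl32 had 470 FPKM and Rpl31 11.1 FPKM, a ratio of 42.4. Rpl26 was listed at 0, as were Rpl10l and Rpl3l, paralogues used mainly in testis and in muscle, and Rpl39l, another paralogue, had 0.735 FPKM. The level moved with the number of other annotated loci that hold a 32-base word of the gene's coding sequence; many ribosomal protein genes have processed pseudogenes. The 19 genes that share words with 0 to 5 other loci had a median of 677 FPKM, the 14 with 6 to 10 loci 216 FPKM, the 28 with 11 to 20 loci 75.4 FPKM and the 23 with over 20 loci 26.4 FPKM. The rank correlation across the 84 genes with a word count was -0.57, and -0.42 when words of the whole transcript were used. The whole-transcript count was tried first and the coding sequence was chosen after its values were seen, since some untranslated ends hold repeats. Genes are not independent replicates, and this is a description.

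**Figure D2:**
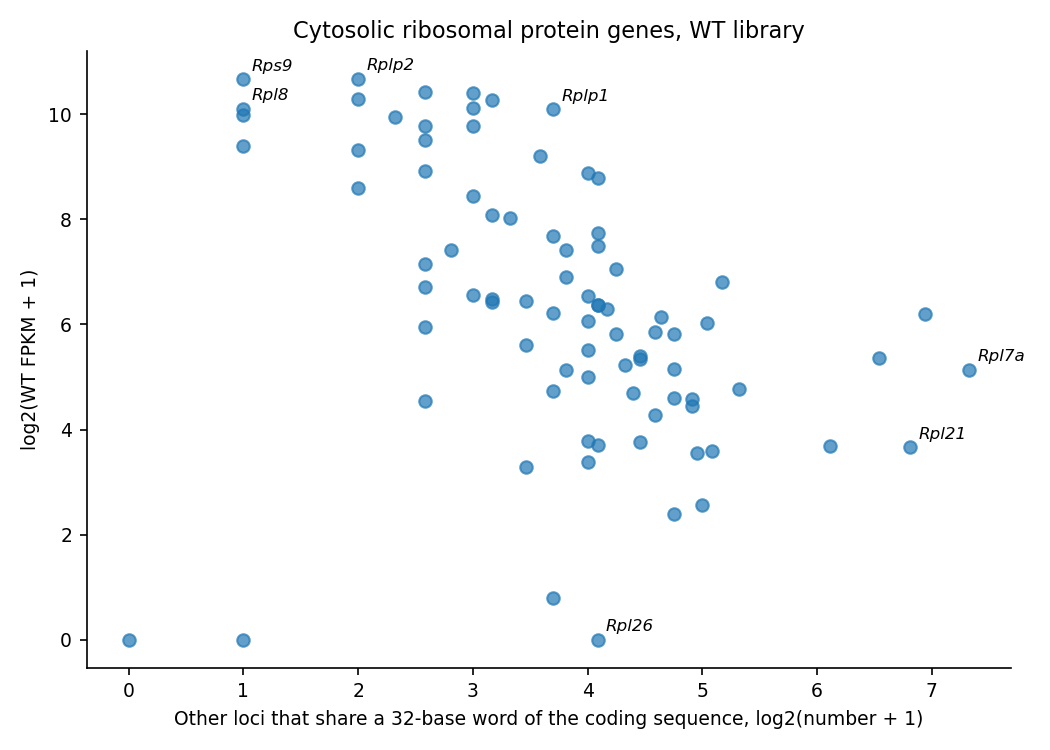
Each point is 1 of the 84 cytosolic ribosomal protein genes, by the number of other loci that share a 32-base word of its coding sequence, on a log2(number + 1) axis, and by its WT level, log2(FPKM + 1). Rplp2 and Rps9, at 1634 and 1620 FPKM, share words with few loci, while Rpl7a, which shares words with 159 other loci, had 34.3 FPKM.

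Single words show how far the sharing goes. They are written along the coding strand of GRCm38, numbered from the A of the start codon, and are shown because they bear on which levels can be read. Rpl8 is an abundant gene shown at a word of its own, and Gapdh, Rpl7a and Rpl26 at the word held by the most other loci.
Rpl8 (chromosome 15, bases 1 to 32, 0 other loci): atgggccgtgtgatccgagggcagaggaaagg
Gapdh (chromosome 6, bases 492 to 523, 124 other loci): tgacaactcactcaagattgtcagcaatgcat
Rpl7a (chromosome 2, bases 436 to 467, 69 other loci): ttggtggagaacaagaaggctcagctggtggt
Rpl26 (chromosome 11, bases 181 to 212, 9 other loci): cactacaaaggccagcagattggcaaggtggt
Gapdh, a glycolytic enzyme gene often used as a loading control, had 6.36 FPKM and shared words with 317 other loci. Actb, whose word count is not given here, stood 684 times higher. Abundant genes shared sequence too. Tpt1 at 1796 FPKM and Eef1a1 at 1369 FPKM had under 50% of their words at no other locus, and Rps16 at 879 FPKM had 0%. Gapdh, Rpl31, Rpl32, Rpl7a, these 3 examples and, below, Trat1 were picked out after their values were seen. How fragments that match several loci were treated is not given in the sources used here, and the part of shared sequence in these levels was not tested. For the T cell genes described next, at least 90% of the words were at no other locus for all 32 lineage regulators and all 22 Tfh, 21 Treg and 16 T lineage genes, and for 35 of 38 cytokines. The exceptions were Mif, Il22 and Iltifb, each with under 50%.

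All 16 genes of the T cell receptor complex and T lineage were measured above 1 FPKM, and 14 of them reached 100 FPKM. Cd3e (chromosome 9, 44998735 to 45009663, GRCm38), a signalling chain of the T cell receptor, was highest at 711 FPKM. Ptprc, the phosphatase CD45, followed at 691 FPKM, Ptprcap, which binds CD45, at 549 FPKM and Cd3g at 543 FPKM (534 to 553). Cd4 (chromosome 6, 124864693 to 124888247), the coreceptor for MHC class II, was at 415 FPKM. The lowest member, the adaptor gene Trat1, had 9.45 FPKM (7.98 to 11.2). Proximal signalling genes were all present too, 24 of 24, led by the kinase gene Lck at 437 FPKM, the adaptor Lat at 364 FPKM, the kinase Fyn at 315 FPKM and the kinase Zap70 at 234 FPKM. The median of the T lineage list was 274 FPKM and that of the signalling list 65.5 FPKM, against 0.2004 FPKM over all entries.

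Among 32 lineage regulators, 30 reached 1 FPKM, led by Tcf7. The highest do not mark a single program, as Maf and Batf also stand on the Th17 list. Tcf7 (chromosome 11, 52246527 to 52283383), which encodes TCF1, a factor of naive, memory and Tfh cells, stood alone at 752 FPKM, 17.0 times its relative Lef1 at 44.2 FPKM. Maf, which drives IL-21 and IL-4 in T cells, had 280 FPKM, Klf2, which keeps up homing genes, 206 FPKM and Batf, an AP-1 partner of IRF4, 167 FPKM. Tox and Tox2, high-mobility-group factors of Tfh cells, were at 119 and 105 FPKM. Pou2af1 and Id2 came next at 84.1 and 76.7 FPKM, both above Bcl6. Bcl6 (chromosome 16, 23965050 to 23988866), the repressor that defines Tfh cells, had 62.4 FPKM and its antagonist Prdm1 (BLIMP1) 5.65 FPKM. Ascl2, which promotes Cxcr5, was at 19.1 FPKM.

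The regulators that define the other programs were measured at lower or middle levels. Gata3, which all CD4 T cells use and Th2 cells raise, had 45.4 FPKM. Foxp3 (chromosome X, 7579676 to 7595243), the Treg factor, had 25.5 FPKM, and Ikzf2 (Helios), found in many Treg cells, 57.0 FPKM. Rora, a nuclear receptor gene used by Th17 cells, stood at 19.01 FPKM. Tbx21, the Th1 factor T-bet, had 3.87 FPKM and its relative Eomes 2.53 FPKM. Bcl6 was thus 2.45 times Foxp3 and 16.1 times Tbx21 in FPKM, while Ikzf2 and Gata3 lay nearer to its 62.4 FPKM. Ratios between different genes do not measure the strength of programs. Under 1 FPKM were Hlx, a partner of T-bet, at 0.788 FPKM and Zbtb16 (PLZF, the factor of innate-like T cells) at 0.506 FPKM. The CD4 lineage factor Zbtb7b (ThPOK) had 54.9 FPKM, and Runx3, which CD8 T cells and Th1 cells use, 21.03 FPKM.

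**Figure D3:**
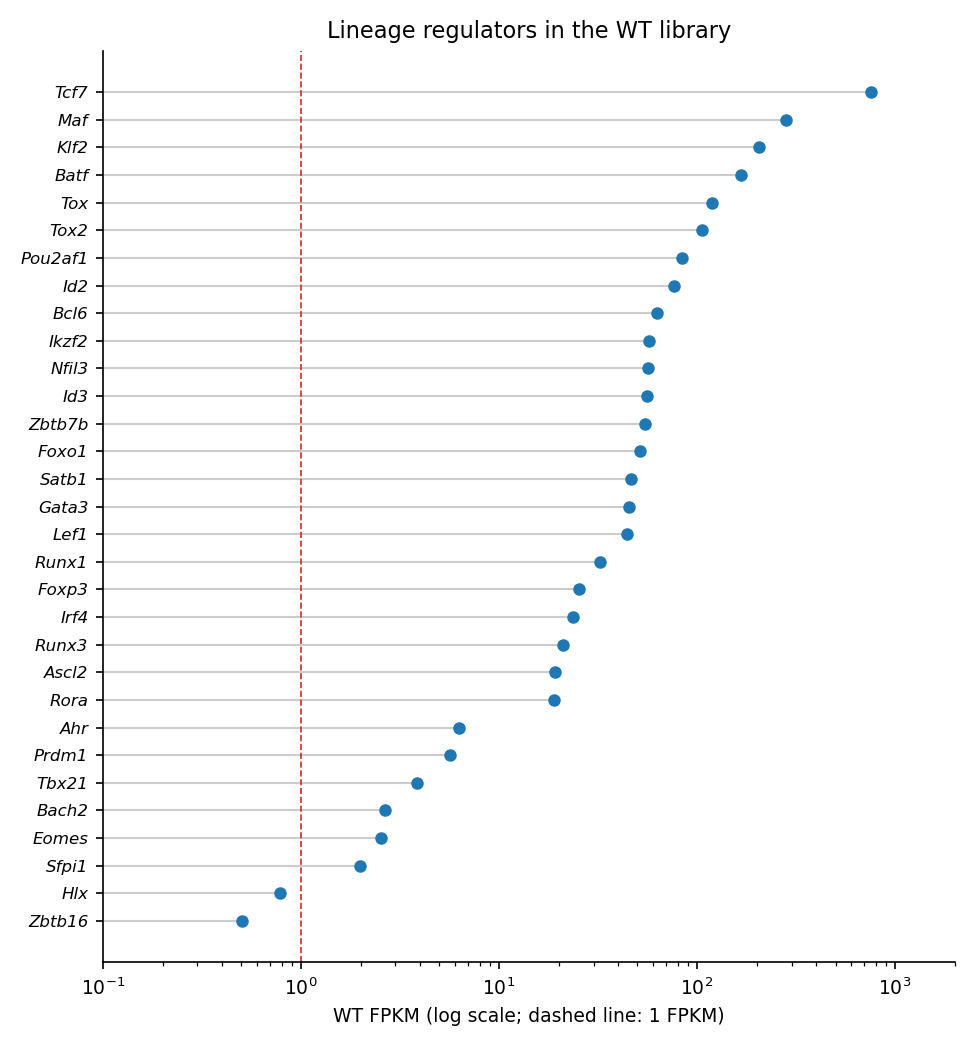
WT level of the lineage regulators reported here in FPKM on a log axis, 1 point per gene, with a dashed line at 1 FPKM. Tcf7 at 752 FPKM stands apart at the top, the middle of the range holds Bcl6 at 62.4 and Foxp3 at 25.5 FPKM, and Hlx and Zbtb16 lie under the line.

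All 22 Tfh genes reached 1 FPKM, 13 of them 100 FPKM, with a median of 117 FPKM. Folr4, the folate receptor 4 gene used as a marker of Tfh and Treg cells, was highest at 341 FPKM. Pdcd1 (PD-1, an inhibitory receptor) had 210 FPKM (206 to 214) and Cxcr5 (chromosome 9, 44511787 to 44526444), the receptor that guides cells to follicles, 208 FPKM (204 to 212). These counting intervals overlap, so their order is not resolved. Tnfsf8 (CD30 ligand) stood at 181 FPKM, Icos, the costimulatory receptor that sustains Tfh cells, at 165 FPKM, and Sh2d1a, whose product SAP stabilises contact with B cells, at 149 FPKM. Sostdc1, a secreted inhibitor of BMP and Wnt signals, had 115 FPKM. Cd40lg, which delivers help to B cells, was at 91.3 FPKM (87.9 to 94.9) and Il21 (chromosome 3, 37222759 to 37232636) at 89.3 FPKM. S1pr2, which confines cells to germinal centres, had 26.1 FPKM.

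The lists of the other helper programs had lower medians. These lists differ in the kinds of genes they hold and were chosen with earlier results known, so their medians do not rank the programs. The lists overlap: Maf and Batf stand on both the Tfh and the Th17 list, and Folr4 on both the Tfh and the Treg list. The Treg list came closest, with 21 of 21 genes above 1 FPKM and a median of 25.5 FPKM. Its highest members were Tigit at 366 FPKM, Folr4 at 341 FPKM and Ctla4 at 266 FPKM, which activated T cells can also carry. The middle of the list held Tnfrsf4 (OX40) at 88.9 FPKM, Tnfrsf18 (GITR) at 80.6 FPKM, Nrp1 (neuropilin 1) at 49.9 FPKM and Nt5e (CD73) at 48.6 FPKM. Lower down were Il2ra (CD25) at 19.1 FPKM, Lrrc32 (GARP) at 2.07 FPKM (1.78 to 2.39) and Ikzf4 (Eos) at 1.34 FPKM. On the Th1 list 18 of 19 genes reached 1 FPKM with a median of 6.18 FPKM, led by the signalling factor Stat4 at 57.0 FPKM, the chemokine Ccl5 at 47.8 FPKM (43.9 to 51.7) and the receptor Cxcr3 at 47.0 FPKM. The Th17 list had 15 of 18 genes and a median of 7.13 FPKM, and its highest genes were Maf, Il22 and Batf. The Th2 list had 7 of 11 genes and a median of 2.09 FPKM, with Il5 and Gpr44, which encodes the prostaglandin D2 receptor CRTH2, near 0 and Il9 and Il24 listed at 0. The B cell list, of cells outside the sort, had a median of 11.1 FPKM, above those of the Th1, Th17 and Th2 lists. The part of other cells in the levels of these lists was not tested.

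**Figure D4:**
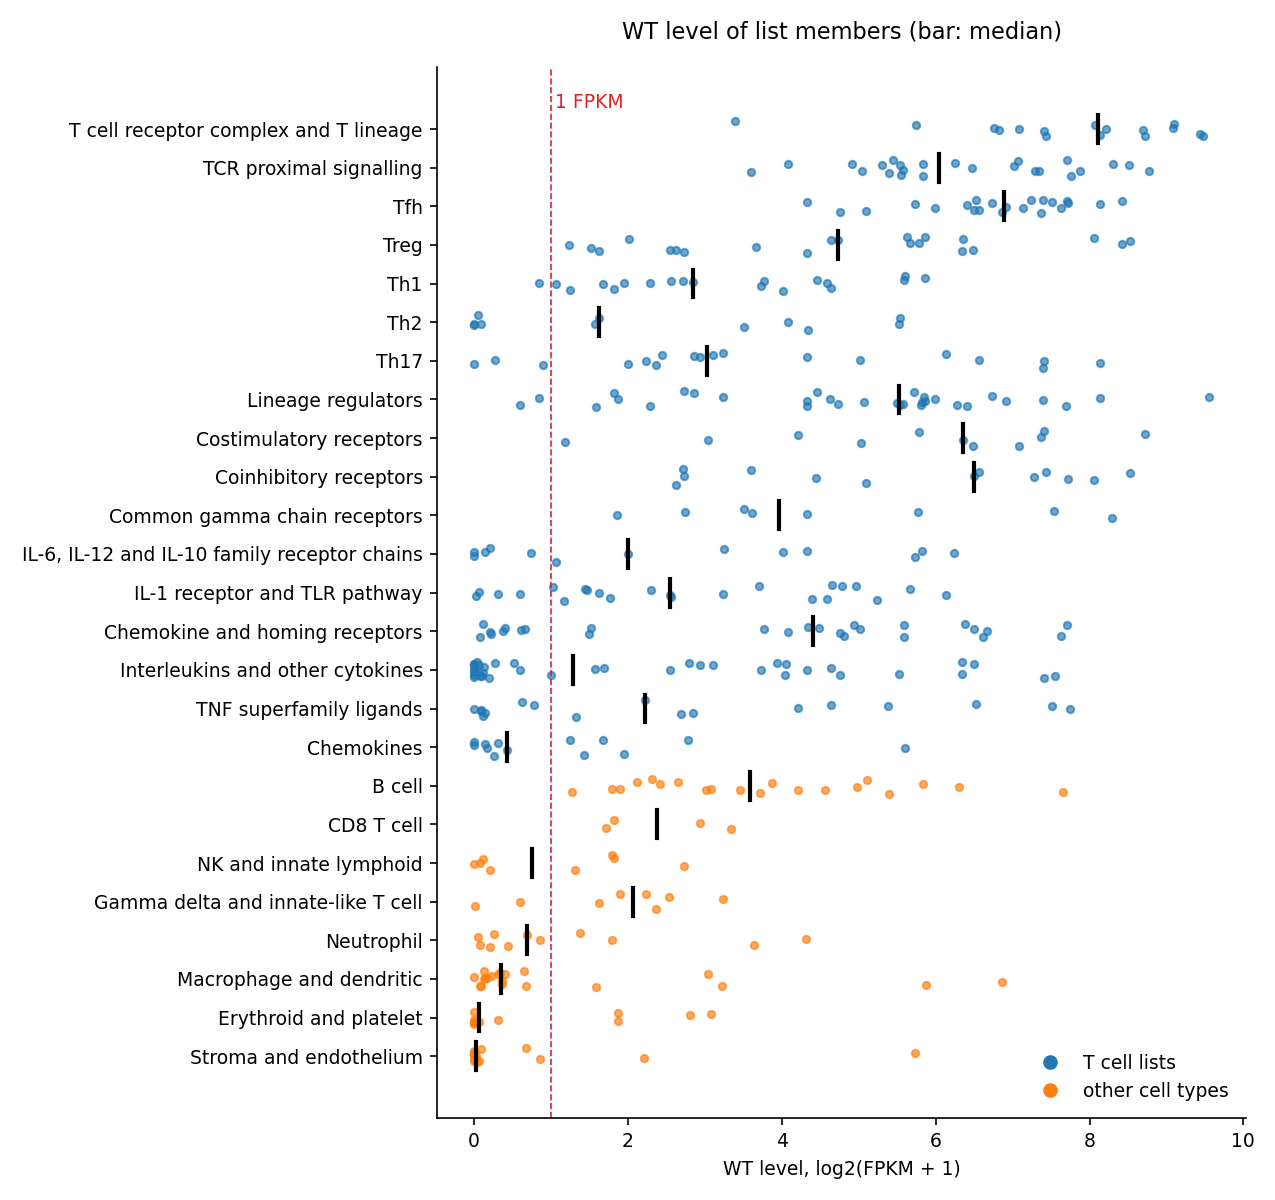
WT level, log2(FPKM + 1), of each member of 25 gene lists, with black bars at the medians, blue points for T cell lists and orange points for other cell types. The T lineage and Tfh lists lie furthest to the right, with medians of 8.10 and 6.89, while the medians of neutrophil, macrophage, erythroid and stromal genes lie left of the dashed line at 1 FPKM.

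Cytokine genes ranged from over 100 FPKM to a listed 0. Of 38, 20 reached 1 FPKM, 11 were above 0 but near 0 and 7 were listed at 0, with a median of 1.49 FPKM. Over all entries 43.8% reached 1 FPKM and the median was 0.2004 FPKM. Mif (macrophage migration inhibitory factor, made by most cells) was highest at 187 FPKM, and under 50% of its coding words were its own. Il22, which acts on epithelia, followed at 169 FPKM and stood 22.2 times above Il17a at 7.60 FPKM (6.59 to 8.71). Il17f, which like Il17a is a Th17 cytokine often made with Il22, had 6.67 FPKM (5.74 to 7.71). Il21 had 89.3 FPKM, 7.30 times Ifng at 12.2 FPKM (11 to 13.6). Il4, which both Th2 and Tfh cells make, had 45.04 FPKM, while the Th2 cytokines Il13 and Il5 had 1.97 FPKM (1.48 to 2.57) and 0.0593 FPKM, or about 2 fragments. The regulatory cytokines Tgfb1 and Il10 were at 80.1 and 23.9 FPKM. Lif, a cytokine of the IL-6 family, had 26.0 FPKM and Areg (amphiregulin, a tissue repair factor) 19.1 FPKM. Il2, the growth factor of newly activated T cells, was at 1.00 FPKM. Il6, Il12b, Il27 and Il33, which myeloid or stromal cells make, and Ifnb1 were listed at 0, as were Il9 and Il24; for Il9 a listed 0 allows up to 0.242 FPKM.

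Il22 has a near-identical neighbour, Iltifb, so its level needs the sequence beside it. Il22 (chromosome 10, 118204584 to 118210047) and Iltifb (chromosome 10, 118289629 to 118295038) have coding sequences of 537 bases without the stop codon, which differ at 9 bases and are 98.3% identical (GRCm38). The stretch with most differences, bases 158 to 217, is shown on the coding strand with its 3 differences in capitals.
Il22: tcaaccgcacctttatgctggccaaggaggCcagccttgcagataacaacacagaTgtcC
Iltifb: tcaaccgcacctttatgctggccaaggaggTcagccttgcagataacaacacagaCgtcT
Iltifb was listed at 15.6 FPKM, and Il22 at 10.8 times that level. The division of fragments between these copies is uncertain.

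Of the TNF superfamily ligands 10 of 17 reached 1 FPKM, beside 43.8% of all entries. Ltb, whose product lymphotoxin beta organises lymphoid tissue, had 214 FPKM, and Tnfsf11 (RANK ligand) 40.8 FPKM (39.1 to 42.6). Tnf was at 23.9 FPKM and Fasl, which triggers death of target cells, at 1.51 FPKM. Tnfsf4 (OX40 ligand), Tnfsf13b (BAFF), Tnfsf12, Tnfsf13, Tnfsf15 and Cd70 were near 0, and Tnfsf18 was listed at 0. Of 13 chemokine genes 6 reached 1 FPKM, a share near the 43.8% of all entries. After Ccl5 the next was Cxcl10 at 5.85 FPKM. Ccl20, a chemokine of Th17 cells, and Cxcl13, which human Tfh cells make, were listed at 0.

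At the floor of 1 FPKM, receptor chains for cytokines were measured more widely than the cytokines themselves. At 5 FPKM, 16 of 38 cytokines remained. At that floor 7 of 8 common gamma chain receptors, 6 of 13 chains of the IL-6, IL-12 and IL-10 families and 9 of 12 receptors for interferons, TGF-beta and TNF remained. All 8 receptor genes of the common gamma chain family reached 1 FPKM. The shared chain Il2rg had 313 FPKM and Il2rb, shared by IL-2 and IL-15, 184 FPKM, while the chain that makes the IL-2 receptor high in affinity, Il2ra, had 19.1 FPKM. Il21r was at 53.4 FPKM, Il7r at 11.2 FPKM, Il4ra at 10.4 FPKM and Il15ra lowest at 2.63 FPKM. In the IL-6, IL-12 and IL-10 families 8 of 13 chains reached 1 FPKM. Il27ra had 74.2 FPKM, Il6ra 55.8 FPKM and their common partner Il6st (gp130) 52.2 FPKM, so the parts of the IL-6 and IL-27 receptors stood within 1.5 times of each other. Il12rb2, the inducible chain of the IL-12 receptor, was at 1.09 FPKM and Il23r at 3.00 FPKM (2.57 to 3.48). Lifr and Il22ra2 were near 0, and Osmr and Il22ra1 were listed at 0. On the list of the IL-1 receptor and Toll-like receptor pathway, which holds receptors and signalling genes together, 19 of 23 genes reached 1 FPKM. Il1r1, the signalling IL-1 receptor, had 69.1 FPKM, the adaptor Myd88 49.8 FPKM, Sigirr, which dampens the pathway, 36.6 FPKM and the decoy receptor Il1r2 30.3 FPKM. Of the receptors for interferons, TGF-beta and TNF 10 of 12 reached 1 FPKM, with Tgfbr2 highest at 67.2 FPKM. Tlr3, Tlr4, Tlr5 and Tlr8 were near 0, with Tlr4, the receptor for the LPS in the adjuvant, at 0.507 FPKM.

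Setting ligands beside receptors gave 23 cytokine systems, a table made after the values were seen. In 18 of them every receptor chain reached 1 FPKM, and in 11 the ligand did, with both subunits required for IL-12, IL-23 and IL-27. Several chains lay close above that level, and at a floor of 5 FPKM every chain was present in 11 systems, the ligand in 10 and both in 5. At 1 FPKM, ligand and receptor were both present in 7 systems, which were IL-2, IL-4, IL-21, IL-10, IFN-gamma, TGF-beta and TNF. IL-2 was among them with Il2 only just at the floor, at 1.005 FPKM. For TNF the separate receptors Tnfrsf1a and Tnfrsf1b were both required. The receptor was complete without its ligand in 11, among them IL-6, IL-27, IL-7, IL-1, IL-18 and IFN-beta. In 4 systems the ligand was present and a receptor chain was near 0. These were IL-22 (Il22ra1 at 0), IL-17 (Il17rc at 0.246 FPKM), LIF (Lifr at 0.153 FPKM) and OSM (Osmr at 0). For CSF2 neither was complete.

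**Figure D5:**
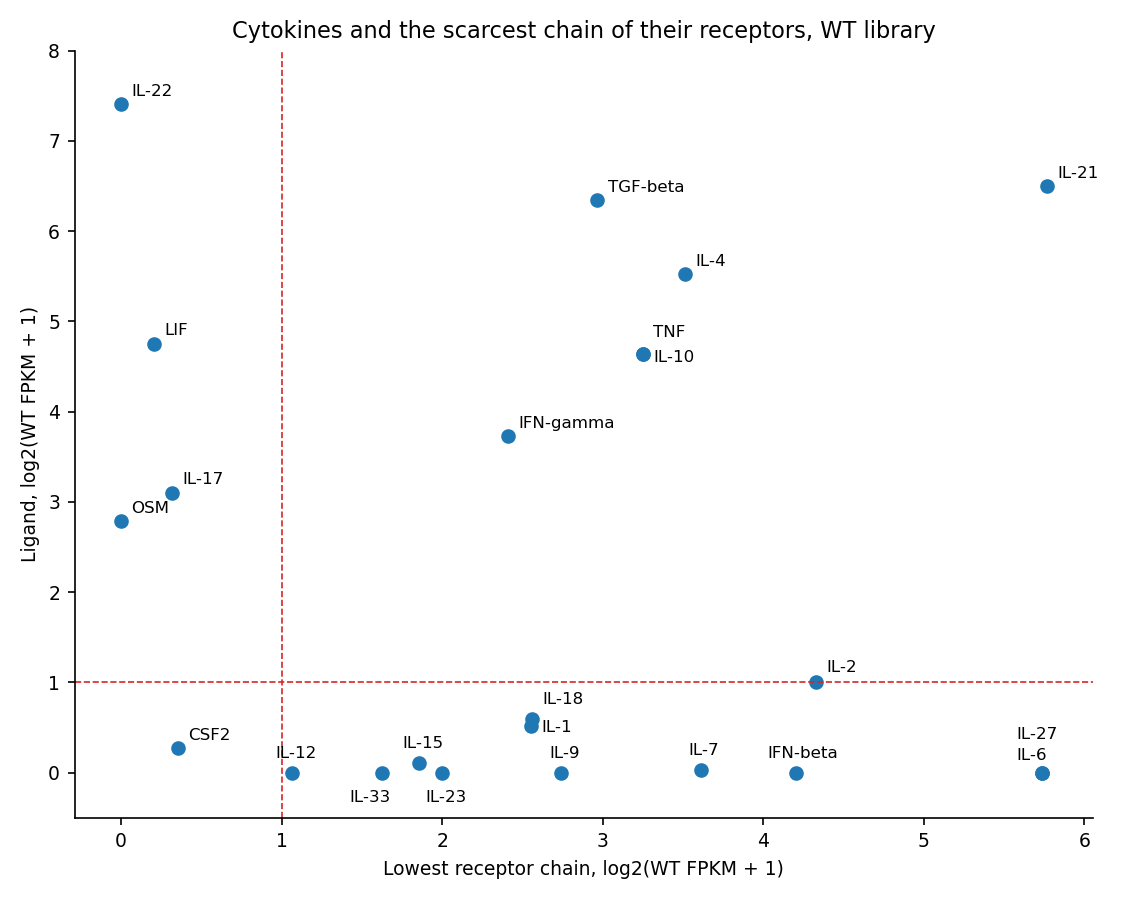
Each point is 1 of 23 cytokine systems, by the lowest of its receptor chains on the x axis and its ligand on the y axis, both as log2(WT FPKM + 1), with dashed lines at 1 FPKM. IL-22, LIF, IL-17 and OSM lie at the upper left, ligand without full receptor, and IL-6, IL-27 and IFN-beta at the lower right, receptor without ligand.

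Homing receptors of follicles and of recirculation were both measured. Of 26 genes 18 reached 1 FPKM. Cxcr5 was highest at 208 FPKM and Cxcr4, a receptor of the germinal centre dark zone and of bone marrow, followed at 197 FPKM. S1pr1, which lets cells leave lymph nodes, had 97.0 FPKM and Gpr183 (EBI2), which guides cells to the follicle edge, 82.0 FPKM. Ccr7, which holds cells in the T zone, had 27.0 FPKM, and Cxcr5 was 7.70 times as high. Among receptors of inflamed tissue Cxcr3 had 47.0 FPKM, the Th17 receptor Ccr6 31.4 FPKM and Cxcr6 29.7 FPKM. The gut receptor Ccr9 was near 0 at 0.315 FPKM, as were Ccr1, Ccr3, Cx3cr1, Xcr1, Cxcr1, Cxcr2 and Cxcr7. Among integrin chains Itgal, of LFA-1, had 361 FPKM, followed by Itgb1 at 199, Itgb2 at 199 and Itgb7 at 166 FPKM, and 5 of 15 chains were near 0.

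Costimulatory and coinhibitory receptors were measured together, with 11 of 11 and 13 of 13 genes at or above 1 FPKM and medians of 80.6 and 89.3 FPKM. Among costimulatory receptors Cd2 had 420 FPKM, Cd27 169 FPKM, Icos 165 FPKM and Cd28 134 FPKM, while Cd40 was lowest at 1.27 FPKM. Among coinhibitory receptors Tigit and Ctla4 led, Lag3 had 154 FPKM (150 to 158) and Btla, the receptor for HVEM, 93.4 FPKM. Havcr2 (TIM-3), a receptor of Th1 and exhausted cells, had 5.55 FPKM and Klrg1, a marker of terminal effectors, 5.17 FPKM. All 30 activation and immediate early genes reached 1 FPKM, with Junb at 1061 FPKM, Zfp36, which destabilises cytokine mRNA, at 616 FPKM, Fos at 539 FPKM and Nfkbia, the NF-kB inhibitor, at 382 FPKM. All 11 STAT and JAK genes were measured, led by Jak1 at 189 FPKM, and 7 of 9 SLAM family genes, where Slamf6 had 140 FPKM and Cd48 80.5 FPKM, with Cd244 and Sh2d1b1 near 0.

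Genes of division and of quiescence were present together. All 26 mitosis genes and all 26 DNA replication genes reached 1 FPKM, with medians of 9.69 and 18.6 FPKM. The highest were Pcna, the replication clamp, at 184 FPKM and Mcm6, of the replicative helicase, at 104 FPKM, but under 50% of the words of Pcna were its own. Top2a, which untangles chromosomes, had 39.2 FPKM. The cell cycle inhibitor Cdkn1b (p27) had 113 FPKM and Ccnd2 (cyclin D2) 87.8 FPKM, while Ccnd1 and Cdkn2a were near 0. All 14 genes of naive and central memory cells reached 1 FPKM, led by Tcf7, Klf2 and Nsg2, the last at 135 FPKM. Of the BCL2 family and death genes 17 of 18 reached 1 FPKM, with Mcl1, the survival factor with a short-lived product, highest at 153 FPKM and Bok listed at 0. In metabolism, 16 of 16 glycolysis genes and 74 of 80 respiratory chain genes reached 1 FPKM, with Aldoa at 488 FPKM and Cox8a at 385 FPKM highest. The 6 respiratory genes near 0 were Cox7a1, Cox6a2, Cox6b2, Cox7b2, Cox8b and Cox8c, isoforms of heart, muscle or testis.

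Most cytotoxic genes lay below 12.9 FPKM, the median of entries at or above 1 FPKM. Of 16 genes 12 reached 1 FPKM, beside 43.8% of all entries. Their median was 1.95 FPKM, against 0.2004 FPKM over all entries. Gzmb (granzyme B) had 47.6 FPKM and Nkg7, of cytotoxic granules, 24.7 FPKM. Gzmc, Gzmm, Klrk1 and Cx3cr1 were near 0.

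Markers of cells outside the sort were also measured. All 20 B cell genes reached 1 FPKM, with a median of 11.1 FPKM, a range of 1.41 to 201 FPKM and a summed level of 554 FPKM. Cd79a, of the B cell receptor, had 30.5 FPKM, Ms4a1 (CD20) 13.7 FPKM and Pax5, the factor of B cell identity, 5.27 FPKM. Cd74 and the MHC class II gene H2-Aa, which dendritic cells share, had 201 and 78.1 FPKM. Cd3e was 23.3 times Cd79a. Pou2af1, which stands on the Tfh list at 84.1 FPKM, is also a B cell gene, as are Bcl6, Cxcr5 and Cd40, and the part of B cell RNA in their levels was not tested. Of 8 plasma cell genes 6 reached 1 FPKM, with the immunoglobulin joining chain Igj at 7.96 FPKM. Cd8a had 2.28 FPKM and Cd8b1 9.16 FPKM, which Cd4 exceeded 182 and 45.3 times.

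Markers of myeloid, NK and stromal cells were counted too, beside the 43.8% of all entries that reached 1 FPKM. Of 20 macrophage and dendritic genes 5 reached 1 FPKM, with Lyz2 (lysozyme) at 7.25 FPKM and Csf1r, Emr1 (F4/80) and Flt3 at 0.322, 0.0559 and 0.0916 FPKM. Their highest members, Ctss at 115 and Cst3 at 57.9 FPKM, are also expressed outside these cells. Of 11 neutrophil genes 4 reached 1 FPKM, with S100a8 at 18.9 FPKM and S100a9 at 11.4 FPKM. Of 8 NK and innate lymphoid genes 4 reached 1 FPKM, a share near that of all entries, with Klrb1c (NK1.1) at 5.63 FPKM, Eomes at 2.53 FPKM, Tyrobp at 2.46 FPKM and Fcer1g at 1.47 FPKM, while the NK receptor gene Ncr1 had 0.157 FPKM. Of 8 gamma delta and innate-like T cell genes 6 reached 1 FPKM. Among the 8, Cd163l1 had 4.81 FPKM (4.34 to 5.32), 5830411N06Rik 2.07 FPKM and Sox13 0.0110 FPKM. The part of such cells in the levels of Il17a and Il22 was not tested. Among stromal and endothelial genes Pecam1, which some leukocytes carry, had 52.1 FPKM, but Cdh5 had 0.0651 FPKM, Col1a1 0.601 FPKM and Pdgfra, Pdgfrb, Lyve1 and Ccl19 were listed at 0. The platelet genes Pf4 and Ppbp were listed at 0, while of the haemoglobin entries Beta-s had 7.47 FPKM and Hba-a2 6.01 FPKM. Of 8 mast cell and basophil genes 2 reached 1 FPKM, Kit at 4.10 FPKM and Mcpt4 at 1.23 FPKM. Xist, expressed from an inactive X, had 42.5 FPKM and the Y-linked genes Ddx3y 4.45 FPKM and Eif2s3y 3.87 FPKM.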

How the data were processed

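PolyA-selected RNA of 1 pooled WT library was read from the authors' deposited comparison with the MyD88 T-KO library, of which all 4 sheets were joined and 1 line without values was left out. The deposited values are FPKM, per the file headers, whose column names are those of Cuffdiff. The authors made these FPKM values with TopHat and Cufflinks on mm10, per the submitters' processing notes, which give no version or setting. The authors scaled each of their 2 deposited tables separately. The WT library in the other table had FPKM higher by a median ratio of 1.024, with 1 entry off that ratio by over 10%.

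Entries were ranked by WT FPKM with Python 3 tools (pandas, scipy), and those at or above 1 FPKM were counted. With 1 library per group no test, error or p-value was computed. The 44 gene lists held 736 entries, of which 607 reached 1 FPKM, and 1 list symbol (Ly6g) had no entry. The members and lists were chosen with earlier results of these data known. Named are the 30 highest entries of a single named gene, all regulators, cytokines, receptors and helper-program genes, and of each other list the 4 highest members, those under 1 FPKM and the defining markers; genes outside this rule were picked with their values known and are named as such. Levels are also given as log2(FPKM + 1).

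Depth was estimated from genes with a single transcript of at least 1000 bases: 140 of them lay at 1 fragment, and 79.9% of the 328 values under 5 fragments lay within 0.25 of a whole fragment. The estimate was fitted to put such low values near whole fragments, so that share is no independent check of it. Shared sequence is the share of 32-base words of the coding sequence found at no other GENCODE locus; it, the search at start sites and the ligand-receptor table were chosen after values were seen. Depth and word counts were tested on simulated data. Coordinates are RefSeq GRCm38.p6, the same assembly as mm10. Some genes are not reported here.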

Additional observations from a re-analysis of the deposited data

How the results depend on the processing

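The number of entries and of list members at or above 1 FPKM stayed within 1.5 times with the WT column of the other table, without small RNA, receptor segment and predicted genes, without entries of several symbols, over only the entries the authors tested, on the TPM scale and at floors of 0.5 and 5 FPKM. The number of entries holding 50% of the summed FPKM did so under the filters on entries. The other WT column and the TPM scale multiply all values nearly alike and say nothing about the stability of that number. Counts at 1 FPKM could hardly move under the other WT column or without the 85 entries of several symbols. Of the 10201 entries at or above 1 FPKM, 10181 were among those the authors tested, so that filter could hardly move them either. The number at or above 100 FPKM was 562, and 2201 on the TPM scale, where each value is larger by construction. It was 364 over entries with at least 90% of words at no other locus, an alternative added after seeing the data that counts fewer entries. Counts of list members moved by over 1.5 times for 2 of 44 lists at a floor of 0.5 FPKM and for 12 at 5 FPKM. Cytokine systems with every receptor chain at the floor numbered 11 at 5 FPKM, against 18 at 1 FPKM, an alternative added after seeing the data. The median log2 level of a list moved by at least 0.1 for 23 lists with a pseudocount of 0.1 FPKM, for 32 with one of 5 FPKM and for 22 over members at or above 1 FPKM alone. No paired analysis was possible because each group has 1 library, and for the same reason no replicate could be left out. Pooling of mice before sequencing hides the variation between them, and near 1 FPKM short genes rest on few fragments.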

Other observations

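Several gene families outside the lists were looked at after their values were seen. All 8 GIMAP GTPase genes, lymphocyte survival genes, reached 1 FPKM, with a median of 94.2 FPKM and Gimap4 highest at 325 FPKM. Among S100 genes S100a11, S100a4, S100a10 and S100a6 had 815, 602, 485 and 294 FPKM, the next was S100a13 at 50.1 FPKM, and S100a14, S100a16, S100a7a, S100g and S100z were listed at 0. Of 20 RGS genes, whose products damp signals of chemokine receptors, 7 reached 1 FPKM, beside 43.8% of all entries. Rgs10 had 237 FPKM and Rgs1 66.2 FPKM. Ets1, a factor of lymphocyte development, had 527 FPKM, against 102 FPKM for Elf1, the next of the 16 ETS genes looked at. All 5 NF-kB subunit genes were measured, from Rel at 23.1 FPKM to Nfkb1 at 84.8 FPKM. All 9 interferon regulatory factor genes reached 1 FPKM with a median of 33.8 FPKM, and 17 of 24 interferon-induced genes did so, with a median of 3.32 FPKM and Isg15 highest at 54.4 FPKM.

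Some entries that are not single named genes ranked high. Mir682, a microRNA entry, stood at rank 4 of all entries with 2657 FPKM, Rn45s, the ribosomal RNA precursor, at 714 FPKM, and Mir703 at 613 FPKM. The libraries were made from polyA-containing RNA, and these entries were left out of the 30 highest named genes. Since FPKM is divided by length, a short microRNA entry can rank high on few fragments, and its rank does not measure the microRNA.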
